A study of Mus musculus with 12 samples.

Results

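Amino acid transporters were followed as a family of genes defined by name. Every gene symbol of the solute carrier families 1, 3, 7, 36, 38 and 43 (Slc1a, Slc3a, Slc7a, Slc36a, Slc38a and Slc43a followed by a number) was taken from 12 count files, and symbols that stayed below 1 CPM (counts of the gene for every 1000000 counts of the library) in all 12 were left out. Of 22276 symbols in the files, 42 carried such a name and 32 were kept. The 10 left out were Slc1a6, Slc1a7, Slc7a3, Slc7a9, Slc7a12, Slc7a13, Slc7a15, Slc36a3, Slc38a8 and Slc38a11. Family names do not fix what a protein carries, and Slc43a3, which is kept here by its name, is known as a carrier of purine nucleobases.

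RNA was taken from liver, from gonadal white adipose tissue (WAT) and from gastrocnemius muscle of male C57BL/6J mice that were 8 weeks old when treatment began. GRf/f mice carried floxed alleles of Nr3c1, the gene of the glucocorticoid receptor (GR), and GRmKO mice carried the same floxed alleles with a Cre recombinase driven by the Acta1 promoter, which is active in myofibers, so that liver and WAT of GRmKO mice kept an intact receptor gene in their own cells. Mice of each genotype drank corticosterone (CORT, the main glucocorticoid of the mouse) at 100 µg/mL in 1% ethanol, or the vehicle, for 4 weeks. Each of the 12 combinations of tissue, genotype and treatment was 1 library made from a pool of RNA of 3 mice, so no difference below has a replicate check, no p-value can be given, and the intervals cover counting error only.

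Library totals ran from 19394572 to 20940660, and a count of 0 allows a level of up to 0.143 to 0.155 CPM. Nr3c1 in gastrocnemius stood at 112.7 CPM in GRf/f vehicle, 90.4 CPM in GRf/f CORT, 46.4 CPM in GRmKO vehicle and 35.5 CPM in GRmKO CORT, which is 41.2% and 39.2% of the GRf/f level. In liver and WAT it stood at 81.5% to 109.7% of the GRf/f level. Marker genes matched the tissue labels, with a sum of 89000 to 121632 CPM for 8 skeletal muscle markers in gastrocnemius, 121877 to 191798 CPM for 15 hepatocyte markers in liver and 45830 to 66849 CPM for 10 adipocyte markers in WAT. The muscle sum in gastrocnemius was lowest in GRmKO vehicle (89000 CPM) and highest in GRf/f vehicle (121632 CPM), with Myh4 called lower and Mylpf higher between them. Hepatocyte markers also summed to 5626 to 8684 CPM in WAT, and adipocyte markers to 505 to 3157 CPM in liver. Sums for the remaining lists over all libraries ran from 55.3 to 2062 CPM for 7 macrophage, 41.5 to 623 CPM for 5 endothelial and 327 to 3864 CPM for 5 erythroid markers. They ran from 3.22 to 403 CPM for 5 Schwann cell, 0 to 1.15 CPM for 6 epididymis and 0.0977 to 15.9 CPM for 4 B cell markers. In such bulk samples, fewer cells of a type and less RNA per cell cannot be told apart.

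Amino acids cross the plasma membrane and the lysosomal membrane on carriers that differ in substrate and in what drives them. System A carriers (Slc38a1, Slc38a2, Slc38a4) take up small neutral amino acids such as alanine with sodium, and system N carriers (Slc38a3, Slc38a5) move glutamine, histidine and asparagine. Light chains of the Slc7a family work as exchangers and need a heavy chain, Slc3a2 or Slc3a1, to reach the cell surface. Glucocorticoids are known to favor the release of amino acids from muscle protein and their use in the liver for glucose production, which makes these carriers a point of contact between both organs.

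Levels of the family were set per length of the transcript kept in the files (CPM per kb), the scale on which different genes can be compared. Of the 32 members, 20 reached 1 CPM in all 3 tissues, 7 in 2 tissues and 5 in 1 tissue. Mean CPM per kb over the 4 libraries of a tissue was highest in WAT for 24 members, in liver for 5 and in gastrocnemius for 3. The files keep 1 transcript for each symbol, and this transcript differed between tissues for 7 members (Slc1a4, Slc7a4, Slc38a1, Slc38a3, Slc38a4, Slc38a5 and Slc43a1), so their order across tissues also rests on which transcript was kept.

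Leading members differed between tissues. The orders given here are those of means over the 4 libraries of a tissue, and single libraries differed from them. Slc38a2 led in gastrocnemius with a mean of 56.5 CPM per kb, ahead of Slc38a6 (31.9), Slc38a3 (24.3), Slc43a3 (22.9) and Slc38a4 (22). In the GRmKO vehicle library Slc38a2 (25.7) lay below Slc43a3. In GRmKO CORT, Slc1a5 (21.6) and Slc3a2 (17.1) lay above Slc38a3 and Slc38a4. In liver the order was Slc38a3 (394 CPM per kb), Slc38a4 (139), Slc7a2 (39.3), Slc38a2 (24.9) and Slc3a1 (18.0). In GRf/f CORT liver, Slc38a6 (24.3), Slc3a1 (23.8) and Slc38a2 (22.6) lay above Slc7a2 (18.4). In GRmKO CORT liver, Slc3a1 (31.98) and Slc38a2 (26.01) lay above Slc7a2 (24.7). In GRf/f vehicle liver, Slc3a1 (5.41) lay below Slc38a10 (15.3). WAT was led by Slc1a5 (823 CPM per kb), a sodium-coupled exchanger of neutral amino acids including glutamine, followed by Slc7a10 (148.1), Slc36a2 (90.9), Slc43a3 (75.3) and Slc3a2 (65.8). Slc1a3 came next with 54.6, but in GRmKO vehicle it stood at 95.9 against 77.0 for Slc36a2. In GRf/f CORT, Slc3a2 (100.5) lay above Slc36a2 (98.1). Slc7a10 and Slc36a2 are both known as surface proteins of fat cells. Summed over the 32 members, CPM in GRf/f vehicle, GRf/f CORT, GRmKO vehicle and GRmKO CORT libraries was 956, 1443, 655 and 673 in gastrocnemius. The same sums were 3064, 1446, 2950 and 1855 CPM in liver, and 4233, 3709, 4269 and 3665 CPM in WAT. The sum was thus highest in the GRf/f CORT library of muscle, and lower with CORT in both genotypes of liver and of WAT.

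**Figure D1:**
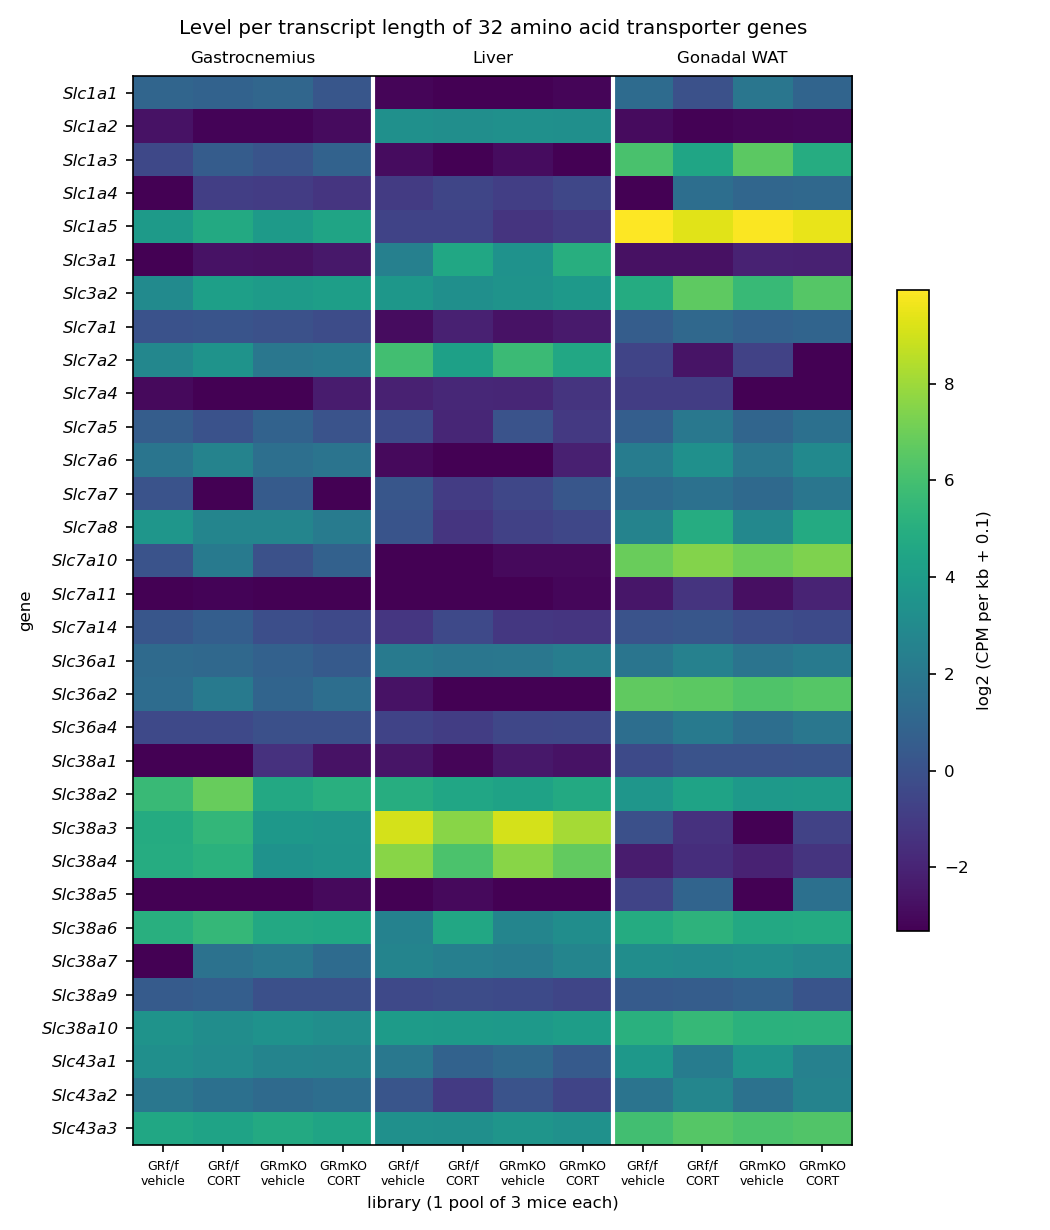
Level of the 32 members in 12 libraries, as log2 of CPM per kb of the kept transcript plus 0.1, with genes in rows, libraries in columns and tissues separated by white lines. Slc38a3 and Slc38a4 stand out in liver, Slc1a5 in WAT and Slc38a2 in the GRf/f CORT library of gastrocnemius.

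In the following, a change is the difference of log2(CPM + 0.5) between 2 libraries, and a member was called when this was at least 1 in size (2-fold). Members entered the comparisons of a tissue when they reached 1 CPM in at least 1 of its 4 libraries, which held for 27 members in gastrocnemius, 22 in liver and 30 in WAT, and the share of all such genes that was called is given as the background. Intervals are 95% exact binomial (Clopper-Pearson) intervals of the ratio of counts, without the added 0.5 CPM. For the difference between genotypes in the CORT change, the interval is a normal approximation for the log ratio of 4 counts. Counts of members by sign, or by intervals that leave out 0, have no share of all genes beside them. They are therefore not read as a trait of the members. The 4 comparisons of a tissue share libraries, since each library enters 2 of them, so they are not independent of each other. Setting members that were listed at 0 in 1 of the libraries compared to the bound that 3 counts give left every median as printed.

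Sequence upstream of the transcription start is shown for 5 members. Slc38a2 in muscle, Slc38a6 in liver, and Slc3a2 and Slc7a8 in WAT are among those the results turn on. Slc7a11, which reached no more than 2.79 CPM in WAT and loses its calls there with a filter at 5 CPM or with NOISeq, is shown for its motif matches and was chosen after they were seen. RefSeq promoters (build GRCm38.p6, the 250 bases before the start, given 5′ to 3′ in the direction of the gene) were held for 24 of the 32 members. Capitals mark matches, on either strand, to the C/EBP-ATF response element (TGATG, then any base, then AA), through which ATF4 acts on amino acid response genes.
Slc38a2, chr15:96699729-96699978, minus strand: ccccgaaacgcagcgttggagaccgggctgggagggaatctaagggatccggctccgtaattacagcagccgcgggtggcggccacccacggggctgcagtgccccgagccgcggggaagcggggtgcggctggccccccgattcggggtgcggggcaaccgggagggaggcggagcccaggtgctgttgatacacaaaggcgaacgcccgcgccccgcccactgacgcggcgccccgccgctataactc
Slc38a6, chr12:73286598-73286847, plus strand: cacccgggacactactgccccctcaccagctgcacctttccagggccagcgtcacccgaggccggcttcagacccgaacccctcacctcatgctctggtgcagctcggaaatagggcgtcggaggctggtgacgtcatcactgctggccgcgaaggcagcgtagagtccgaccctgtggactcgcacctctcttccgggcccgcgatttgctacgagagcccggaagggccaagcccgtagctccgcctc
Slc3a2, chr19:8713898-8714147, minus strand: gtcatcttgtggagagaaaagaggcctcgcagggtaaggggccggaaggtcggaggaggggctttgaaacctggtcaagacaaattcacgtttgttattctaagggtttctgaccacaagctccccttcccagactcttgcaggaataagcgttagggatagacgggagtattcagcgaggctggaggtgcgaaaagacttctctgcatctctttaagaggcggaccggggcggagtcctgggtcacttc
Slc7a8, chr14:54781887-54782136, minus strand: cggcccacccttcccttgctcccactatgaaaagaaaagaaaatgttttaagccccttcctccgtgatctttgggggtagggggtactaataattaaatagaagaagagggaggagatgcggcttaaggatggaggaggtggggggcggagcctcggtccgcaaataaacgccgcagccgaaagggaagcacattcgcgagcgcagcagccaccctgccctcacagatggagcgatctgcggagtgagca
Slc7a11, chr3:50443614-50443863, minus strand: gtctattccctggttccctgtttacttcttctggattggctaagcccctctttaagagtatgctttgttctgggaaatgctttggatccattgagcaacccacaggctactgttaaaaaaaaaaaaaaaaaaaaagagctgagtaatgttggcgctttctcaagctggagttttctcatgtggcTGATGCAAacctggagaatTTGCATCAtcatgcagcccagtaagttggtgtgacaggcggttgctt

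Slc7a11 held the element at positions -66 and -47 relative to the start, on opposite strands and without overlap. Among the 24 members, 1 other, Slc7a7, held a match, upstream of starts that lie at least 7486 bases from that of its kept transcript. Some members had more than 1 promoter searched. Counted by promoter, 3 of 33 member promoters (9.09%) held a match, beside 3.45% of all 32851 promoters in the table. The full glucocorticoid response element (AGAACA, 3 bases, TGTTCT) was found in 0 of the 24 members and in 3 of the 32851 promoters (0.00913%). No match says only that these letters are not in the 250 bases searched. The 5 promoters differed in base composition, with 72.0% G and C for Slc38a2, 66.4% for Slc38a6, 55.6% for Slc7a8, 53.6% for Slc3a2 and 43.2% for Slc7a11, beside a median of 52.4% over all promoters.

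Gastrocnemius, the tissue in which GRmKO mice lack the receptor in myofibers, had Slc38a2, Slc38a3, Slc38a4 and Slc7a2 lower in GRmKO than in GRf/f mice under both treatments. With CORT, 6 of 27 members were lower in GRmKO than in GRf/f muscle by the 2-fold rule and 0 were higher, beside 6.72% of all 12998 genes called lower and 6.19% called higher. Under vehicle, 2 of 27 were called lower and 3 higher, beside 4.36% and 6.68% of all genes, and with TMM factors, a scaling on the bulk of the genes, 4 were called lower and 3 higher. By library totals, the 3 called higher (Slc38a7, Slc38a1 and Slc1a4) were each listed at 0 in GRf/f vehicle. The 2 called lower were Slc38a4 and Slc38a3. The median change of the members was -0.46 with CORT and -0.12 under vehicle, beside 0.03 and 0.08 over all genes. Under CORT, 20 of the 27 members had a negative change, and for 17 of them the counting interval lay below 0.

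Slc38a2 (SNAT2), a system A carrier whose expression is known to be raised when amino acids run short, lies at chr15:96687392-96699730 on the minus strand (GRCm38), and its kept transcript has 16 exons. Its level was 233 CPM in GRf/f vehicle, 546 CPM in GRf/f CORT, 119.7 CPM in GRmKO vehicle and 155 CPM in GRmKO CORT muscle. The GRf/f CORT library was well above the other 3, and both GRmKO libraries were below both GRf/f libraries. The change with CORT was 1.23 in GRf/f (interval 1.18 to 1.28) and 0.37 in GRmKO (0.30 to 0.45), a difference of 0.85. The change with genotype was -0.96 under vehicle (-1.03 to -0.89) and -1.81 with CORT (-1.87 to -1.76). Slc38a2 alone made up 37.8% of the members' summed CPM in the GRf/f CORT library and 18.3% to 24.4% in the other 3.

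Slc38a4 (SNAT4), a further system A carrier, lies on the same chromosome at chr15:96994820-97055956, and Slc38a1 lies at chr15:96571418-96642913, in the same stretch. Slc38a4 stood at 117.1 CPM in GRf/f vehicle, 140.2 CPM in GRf/f CORT, 42.0 CPM in GRmKO vehicle and 47.0 CPM in GRmKO CORT muscle. Unlike Slc38a2, it differed mainly by genotype, with -1.47 under vehicle (-1.59 to -1.36) and -1.57 with CORT (-1.68 to -1.47). Its CORT changes were 0.26 in GRf/f and 0.16 in GRmKO, and the interval of their difference, -0.06 to 0.25, held 0. Slc38a1 was listed at 0 in both GRf/f libraries and at 1.96 and 0.39 CPM in the GRmKO vehicle and CORT libraries, which under vehicle is at least 12.9-fold higher against a floor of 3 counts in the library at 0.

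Slc38a3 (SNAT3), the system N carrier, stood at 69.7 CPM in GRf/f vehicle, 107.7 CPM in GRf/f CORT, 32.4 CPM in GRmKO vehicle and 30.0 CPM in GRmKO CORT muscle. Its change with genotype was -1.09 under vehicle (-1.24 to -0.97) and -1.83 with CORT (-1.98 to -1.71). CORT went with a change of 0.63 in GRf/f (0.53 to 0.73) and of -0.11 in GRmKO (-0.27 to 0.05), a difference of 0.73. Slc7a2 (CAT2), a carrier of arginine, lysine and ornithine, was likewise highest in GRf/f CORT and lowest in the GRmKO libraries, with 54.5 CPM in GRf/f vehicle, 89.4 CPM in GRf/f CORT, 29.0 CPM in GRmKO vehicle and 33.2 CPM in GRmKO CORT. Its change with genotype was -0.90 under vehicle, just short of a call, and -1.42 with CORT (-1.56 to -1.30). Together, Slc38a2, Slc38a3, Slc38a4 and Slc7a2 summed to 474, 883, 223 and 265 CPM in GRf/f vehicle, GRf/f CORT, GRmKO vehicle and GRmKO CORT muscle.

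Slc38a3, Slc38a4 and Slc7a2 are also the members with the highest mean CPM per kb in liver, and hepatocyte markers were read beside them. The 15 hepatocyte markers summed to 84.5 CPM in GRf/f vehicle, 154 CPM in GRf/f CORT, 205 CPM in GRmKO vehicle and 536 CPM in GRmKO CORT muscle, and in GRmKO relative to GRf/f 13 of 15 were called higher under vehicle and 14 of 15 with CORT. Their median level in muscle was 0.00828%, 0.00817%, 0.0769% and 0.233% of that in the matching liver library, while Slc38a3 in muscle stood at 5.17%, 22.5%, 2.39% and 4.25% of its liver level. Slc7a2 in muscle stood at 11.3%, 61.4%, 6.91% and 17.0% of its liver level. Markers of blood and of macrophages also differed between genotypes in muscle. The 5 erythroid markers summed to 516.8 CPM in GRf/f vehicle, 527.97 CPM in GRf/f CORT, 926 CPM in GRmKO vehicle and 1709 CPM in GRmKO CORT, and in GRmKO relative to GRf/f 2 of the 4 above the filter were called higher under vehicle and 4 of 4 with CORT. The 7 macrophage markers summed to 139, 137, 449 and 178 CPM in the same order, with 5 of 7 called higher in GRmKO under vehicle and 0 with CORT. The part of these cells in the genotype differences of the members was not tested.

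**Figure D2:**
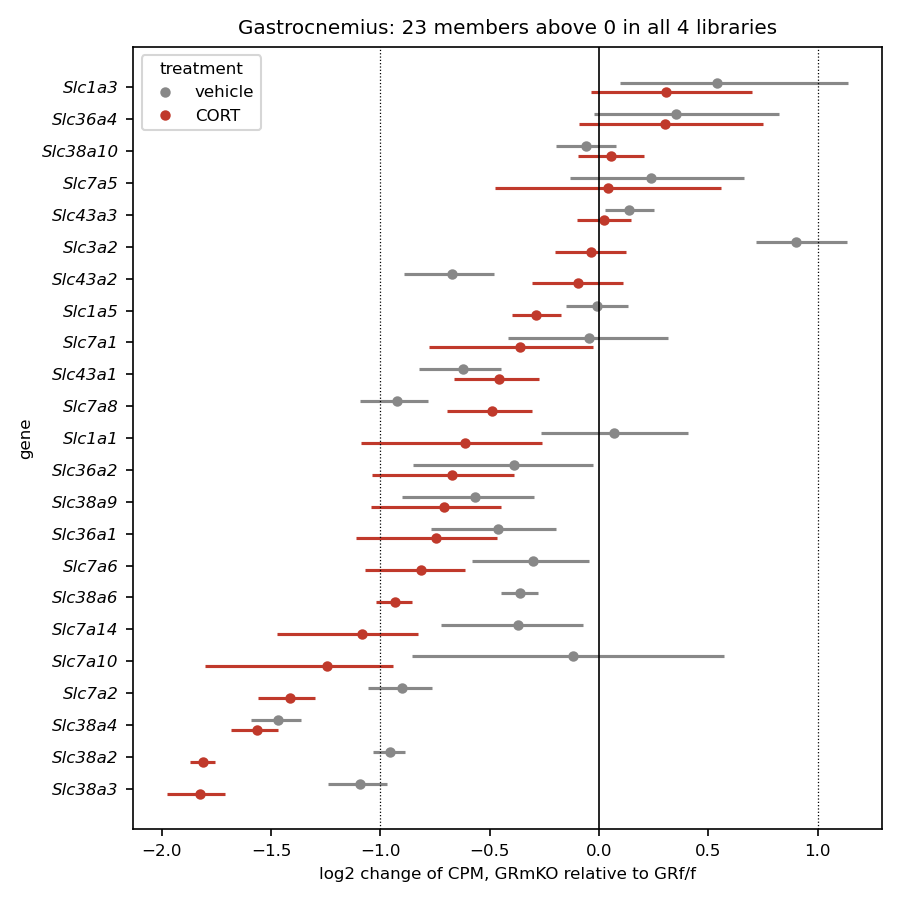
Change of CPM in GRmKO relative to GRf/f gastrocnemius under vehicle (grey) and CORT (red) for the 23 members above 0 in all 4 libraries, as log2(CPM + 0.5) with 95% counting intervals as lines and the 2-fold limits dotted. Slc38a3, Slc38a2, Slc38a4 and Slc7a2 lie lowest with CORT, between -1.83 and -1.42.

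CORT in GRf/f muscle gave 5 members called higher and 1 lower of 27, beside 4.63% and 6.44% of all genes, and a median of 0.26 beside -0.09. In GRmKO muscle, 0 were called higher and 2 lower, beside 2.74% and 6.92%, and the median was -0.11 beside -0.10. In GRf/f, Slc38a7 and Slc1a4, called higher, were listed at 0 with vehicle, and Slc7a7, called lower, at 0 with CORT. The 2 called lower in GRmKO were Slc7a7, again at 0 with CORT, and Slc38a1, from 1.96 to 0.39 CPM. NOISeq, which leaves out genes with a 0, called only Slc38a2 and Slc3a2 in GRf/f and 0 members in GRmKO. Besides Slc38a2, the heavy chain Slc3a2 was called in GRf/f, with 14.6 CPM in GRf/f vehicle, 32 CPM in GRf/f CORT, 27.7 CPM in GRmKO vehicle and 31.1 CPM in GRmKO CORT. The GRf/f vehicle library was thus the low one, and the other 3 lay close together. Its change with CORT was 1.10 in GRf/f (0.93 to 1.34) and 0.16 in GRmKO (0.00 to 0.33). Among its light chains, Slc7a6 stood at 13.1, 22.3, 10.5 and 12.4 CPM in the same order of libraries, whereas Slc7a8 stood at 50.6, 26.1, 26.4 and 18.5 CPM, highest in GRf/f vehicle.

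Slc7a10 (Asc-1), a light chain for small neutral amino acids, was low in muscle, with 1.88 CPM in GRf/f vehicle, 8.38 CPM in GRf/f CORT, 1.69 CPM in GRmKO vehicle and 3.24 CPM in GRmKO CORT. It was called higher with CORT in GRf/f (1.90, 1.64 to 2.72) and lower in GRmKO than GRf/f with CORT (-1.25, -1.80 to -0.94). These levels were 0.788%, 2.39%, 0.682% and 1.01% of those in the matching WAT library. The 10 adipocyte markers in muscle had a median of 0.545%, 2.73%, 0.547% and 1.82% of their WAT level, and 6 of 10 were called higher and 1 lower with CORT in GRf/f, 5 higher and 0 lower in GRmKO. Their summed level was 2294 to 2987 CPM in GRf/f and 4862 to 5166 CPM in GRmKO muscle, most of it from Car3, which muscle fibers also express, and Cidec was at 0 in GRmKO vehicle. Slc1a5 and Slc36a2, the other leading members of WAT, stood in muscle at 1.53% to 4.05% and 2.38% to 4.46% of their WAT level and were highest in the GRf/f CORT library. The part of fat in these 3 values was not tested.

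Slc38a6, for which the substrates are less settled, stood at 131 CPM in GRf/f vehicle, 176 CPM in GRf/f CORT, 101.6 CPM in GRmKO vehicle and 92.0 CPM in GRmKO CORT muscle, a change with genotype of -0.93 with CORT (-1.02 to -0.86). Slc7a14 was called lower in GRmKO with CORT (-1.09, -1.47 to -0.83), from 9.36, 13, 7.12 and 5.88 CPM in the same order. Slc43a3 stayed between 53.2 and 67.5 CPM. Across the 23 members above 0 in all 4 muscle libraries, the CORT change was larger in GRf/f than in GRmKO with an interval of the difference above 0 for 10, and below 0 for 2.

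A few entries in muscle were listed at 0 in some libraries and above 1 CPM in others. Slc38a7 (SNAT7), a glutamine carrier of the lysosomal membrane, was listed at 0 in GRf/f vehicle and at 10.3 CPM in GRf/f CORT, 12.9 CPM in GRmKO vehicle and 7.98 CPM in GRmKO CORT, which is at least 68.4-fold higher with CORT in GRf/f and at least 85.4-fold higher in GRmKO than in GRf/f under vehicle, against the same floor. Slc1a4 was listed at 0 in GRf/f vehicle and at 1.23 to 1.75 CPM elsewhere, and Slc7a7 at 0 in both CORT libraries against 1.92 and 2.65 CPM in the vehicle libraries of GRf/f and GRmKO. Slc7a7 is at least 12.4-fold lower with CORT in GRf/f and at least 18.0-fold lower in GRmKO. Of the 7 macrophage markers in muscle, 0 were called with CORT in GRf/f and 6 were called lower in GRmKO, and their part in the Slc7a7 values was not tested. Each entry is 1 transcript of a gene with several coding transcripts (3 for Slc38a7, 2 for Slc1a4, 10 for Slc7a7 and 4 for Slc38a1 in GENCODE M21). Among all genes at 1 CPM or more in the other 3 muscle libraries, 0.646% were at 0 in GRf/f vehicle, beside 0.531% to 0.702% for the other libraries. Whether reads of these genes went to another transcript was not tested.

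In liver, whose hepatocytes keep the receptor gene in GRmKO mice, the 3 members with the highest mean CPM per kb were lower with CORT in both genotypes. In GRf/f liver, 8 of 22 members were called lower with CORT and 2 higher, beside 7.71% of all 11627 genes called lower and 7.54% called higher. In GRmKO liver, 2 were called lower and 1 higher, beside 4.35% and 4.45%. The medians were -0.24 and 0.15, beside 0.00 and 0.05 over all genes.

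Slc38a3, which supplies hepatocytes with glutamine, stood at 1346 CPM in GRf/f vehicle, 478 CPM in GRf/f CORT, 1355 CPM in GRmKO vehicle and 705 CPM in GRmKO CORT liver. Both CORT libraries lay below both vehicle libraries, and the vehicle libraries lay together. The change with CORT was -1.49 in GRf/f (-1.53 to -1.46) and -0.94 in GRmKO (-0.97 to -0.91), a difference of -0.55. Slc38a4 followed a like pattern with 742, 289, 739 and 416 CPM and CORT changes of -1.36 in GRf/f and -0.83 in GRmKO. Slc7a2 stood at 483, 145, 419 and 195 CPM, with CORT changes of -1.73 in GRf/f (-1.79 to -1.67) and -1.10 in GRmKO (-1.16 to -1.05). The 3 carriers made up 83.9% of the members' summed CPM in GRf/f vehicle liver and 63.1% in GRf/f CORT, against 85.2% and 71.0% in GRmKO.

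For Slc38a3, Slc38a4 and Slc7a2, all lower in GRmKO muscle, the changes with genotype in liver were 0.01, -0.01 and -0.20 under vehicle and 0.56, 0.53 and 0.42 with CORT. Slc38a2 in liver stood at 145 CPM in GRf/f vehicle, 105.5 CPM in GRf/f CORT, 92.3 CPM in GRmKO vehicle and 121.2 CPM in GRmKO CORT, with CORT changes of -0.45 in GRf/f and 0.39 in GRmKO, neither called.

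Higher with CORT were Slc3a1 and Slc38a6. Slc3a1 (rBAT), the heavy chain of the exchanger for cystine and cationic amino acids, stood at 12.3 CPM in GRf/f vehicle, 54.2 CPM in GRf/f CORT, 24.6 CPM in GRmKO vehicle and 72.6 CPM in GRmKO CORT liver, with changes of 2.09 (1.94 to 2.34) and 1.54 (1.41 to 1.71). Its known light chains, Slc7a9 and Slc7a13, were at or below 0.0485 CPM in all 4 liver libraries. Slc38a6 stood at 23.0 CPM in GRf/f vehicle, 95.6 CPM in GRf/f CORT, 25.4 CPM in GRmKO vehicle and 35.7 CPM in GRmKO CORT. The GRf/f CORT library stood apart, with a CORT change of 2.03 in GRf/f (1.91 to 2.20) against 0.48 in GRmKO (0.33 to 0.65), a difference of 1.55. With CORT, Slc38a6 was the 1 member called lower in GRmKO than in GRf/f liver (-1.41), and Slc7a7 the 1 called higher (1.03), beside 3.56% and 4.04% of all genes. With TMM factors Slc7a7 fell short, Slc7a14 was called, and the split became 2 lower and 0 higher.

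The remaining calls in liver were of members below 10 CPM. Slc43a1 (LAT3) and Slc43a2 (LAT4), which carry branched-chain amino acids and phenylalanine, were lower with CORT in GRf/f, from 9.89 to 4.34 CPM and from 7.14 to 2.63 CPM. Both were also lower in GRmKO, from 5.70 to 3.13 CPM and from 6.60 to 3.83 CPM, below the 2-fold limit. The light chain Slc7a5 (LAT1) went from 2.44 to 0.59 CPM in GRf/f and from 3.35 to 1.25 CPM in GRmKO. Slc7a7 and Slc7a8 were called lower in GRf/f, from 2.17 to 0.83 CPM and from 4.01 to 1.27 CPM, and stood at 1.26 and 2.22 CPM and at 1.99 and 2.50 CPM in GRmKO vehicle and CORT. Macrophages are known to express Slc7a7, and the 7 macrophage markers summed to 166 CPM in GRf/f vehicle, 55.3 CPM in GRf/f CORT, 134 CPM in GRmKO vehicle and 84.0 CPM in GRmKO CORT liver, with 5 of 7 called lower with CORT in GRf/f and 2 in GRmKO. The 5 erythroid markers summed to 729, 327, 482 and 781 CPM in the same order, with 3 of the 4 above the filter called lower with CORT in GRf/f and 0 in GRmKO. The part of these cells in the liver values was not tested. Slc1a2 (GLT-1), a glutamate carrier, hardly moved, with 115 CPM in GRf/f vehicle, 108.6 CPM in GRf/f CORT, 117 CPM in GRmKO vehicle and 113 CPM in GRmKO CORT.

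Under vehicle, 0 of 22 members differed 2-fold between GRmKO and GRf/f liver, beside 2.57% of all genes called higher and 2.46% called lower, and no replicated test stands behind this count. With CORT, 17 of 22 members had a positive change with genotype and 14 an interval above 0, with a median of 0.33 beside 0.08 over all genes. No share of all genes stands beside these counts of signs and intervals. In the same comparison, 3 of the 4 erythroid and 2 of the 2 skeletal muscle markers above the filter were called higher in GRmKO. The part of these cells in the members' values was not tested. The interval of the difference between genotypes in the CORT change lay below 0 for 11 of 22 members and above 0 for 3.

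**Figure D3:**
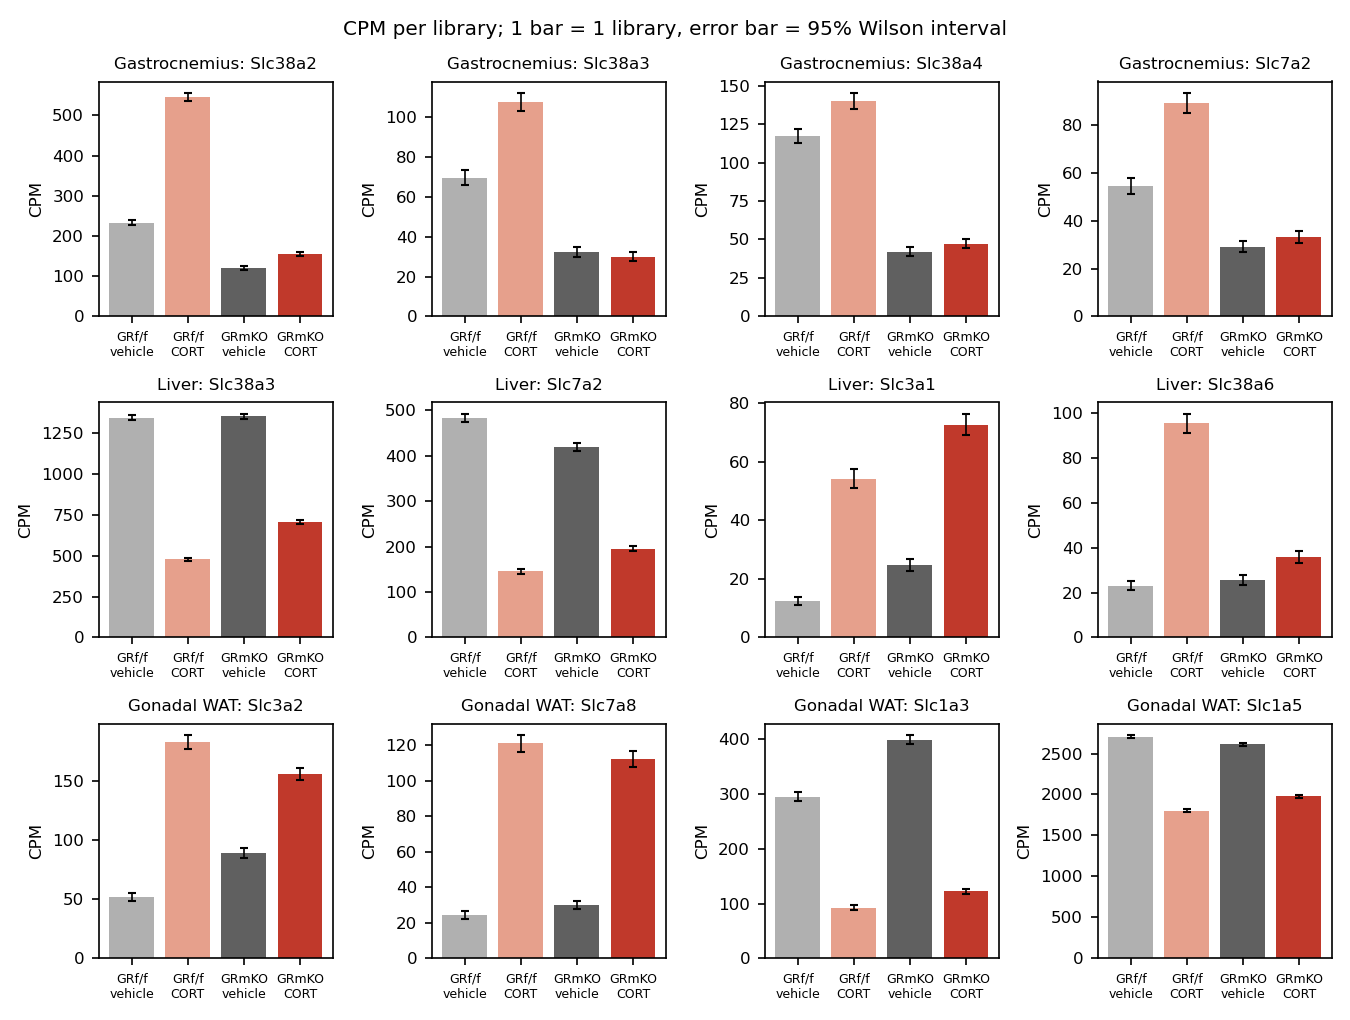
CPM of members that lead the results in gastrocnemius (top), liver (middle) and gonadal WAT (bottom), with 1 bar for each library and 95% Wilson intervals, each axis starting at 0. Slc38a2 in muscle reaches 546 CPM in GRf/f CORT against 155 CPM in GRmKO CORT, while Slc7a8 in WAT reaches 121 and 112 CPM.

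WAT, in which GRmKO mice also keep the receptor gene, had Slc3a2 and several light chains higher with CORT and Slc1a3 and Slc43a1 lower. In GRf/f WAT, 7 of 30 members were called higher and 5 lower, beside 6.77% and 9.9% of all 13491 genes. In GRmKO WAT, 5 were called higher and 3 lower, beside 4.91% and 7.06%, and with TMM factors the split was 6 higher and 2 lower. The medians were 0.49 and 0.16, beside -0.07 and -0.13 over all genes, and 25 of the 30 members changed in the same direction in both genotypes.

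The heavy chain Slc3a2 stood at 51.8 CPM in GRf/f vehicle, 183 CPM in GRf/f CORT, 88.7 CPM in GRmKO vehicle and 156 CPM in GRmKO CORT. Its change was 1.81 in GRf/f (1.72 to 1.92) and 0.81 in GRmKO (0.73 to 0.90), a difference of 1.00, with the vehicle level higher in GRmKO. Slc7a8 (LAT2), an exchanger of large neutral amino acids, stood at 24.1 CPM in GRf/f vehicle, 121 CPM in GRf/f CORT, 29.9 CPM in GRmKO vehicle and 112 CPM in GRmKO CORT, with changes of 2.30 (2.18 to 2.47) and 1.89 (1.78 to 2.04). In both genotypes, the CORT library lay far above the vehicle library.

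Most other light chains were less abundant. Slc7a6 (y+LAT2) stood at 17.6 CPM in GRf/f vehicle, 38 CPM in GRf/f CORT, 13.8 CPM in GRmKO vehicle and 28.9 CPM in GRmKO CORT, with changes of 1.09 and 1.04. Slc7a5 stood at 5.21, 13.4, 6.74 and 10.3 CPM in the same order, called in GRf/f (1.28, 1.03 to 1.70) and not in GRmKO (0.58, 0.29 to 0.94). Slc7a11 (xCT), the cystine and glutamate exchanger, was close to the detection limit, with 0.71, 2.79, 0.42 and 1.39 CPM, and was called higher in both genotypes (1.44 and 1.04). Slc7a7 was at 4.52 to 7.25 CPM with no call. Slc7a10, by contrast the most abundant light chain per length, stood at 238 CPM in GRf/f vehicle, 351 CPM in GRf/f CORT, 247 CPM in GRmKO vehicle and 320.2 CPM in GRmKO CORT, below the 2-fold limit.

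Of the glutamate carriers in the Slc1a family, Slc1a3 was called lower with CORT in both genotypes and Slc1a1 in GRf/f. Slc1a3 (GLAST) stood at 295 CPM in GRf/f vehicle, 92.6 CPM in GRf/f CORT, 399 CPM in GRmKO vehicle and 122 CPM in GRmKO CORT, with changes of -1.67 (-1.75 to -1.60) and -1.70 (-1.77 to -1.64). The interval of the difference between genotypes, -0.06 to 0.14, held 0. Slc1a1 (EAAT3) went from 8.99 to 3.37 CPM in GRf/f, which was called, and from 13.4 to 7.05 CPM in GRmKO, which was not. Slc1a5, which made up 48.5% to 64.0% of the members' summed CPM, stood at 2707 CPM in GRf/f vehicle, 1799 CPM in GRf/f CORT, 2611 CPM in GRmKO vehicle and 1978 CPM in GRmKO CORT. Its changes of -0.59 and -0.40 were not called.

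Slc43a1 was lower with CORT, with 34.4 CPM in GRf/f vehicle, 11.8 CPM in GRf/f CORT, 30.8 CPM in GRmKO vehicle and 14 CPM in GRmKO CORT (-1.50 and -1.11, the second becoming -0.99 and no longer called with TMM factors). Its relative Slc43a2 moved the other way, with 23.3, 46.0, 21.6 and 40.9 CPM and changes of 0.97 and 0.91, just below the limit, which became 1.02 and 1.03 with TMM factors. Slc43a3 stood at 154, 224, 189 and 212 CPM. Slc36a2 (PAT2), a proton-coupled carrier of glycine, alanine and proline, stood at 250.3, 238, 187 and 208 CPM, without a call. Slc7a2, so abundant in liver, was at 4.33 and 4.06 CPM in the vehicle libraries of GRf/f and GRmKO and at 0.49 and 0 CPM with CORT.

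Further entries near or at 0 in WAT were Slc1a4, Slc38a3, Slc38a5 and Slc7a4. Slc1a4 (ASCT1), a carrier of alanine, serine and cysteine, was listed at 0 in GRf/f vehicle and at 10.3 CPM in GRf/f CORT, 7.75 CPM in GRmKO vehicle and 8.41 CPM in GRmKO CORT, which is at least 68.5-fold higher with CORT in GRf/f. As in muscle, the library at 0 was GRf/f vehicle, and the gene has 2 coding transcripts. Slc38a5 stood at 1.05, 3.47, 0 and 5.30 CPM, Slc38a3 at 2.05, 0.65, 0 and 1.29 CPM, and Slc7a4 at 1.2, 1.16, 0 and 0 CPM in GRf/f vehicle, GRf/f CORT, GRmKO vehicle and GRmKO CORT WAT. Of all genes at 1 CPM or more in the other 3 WAT libraries, 0.387% were at 0 in GRf/f vehicle and 0.412% in GRmKO vehicle. Whether reads of these genes went to another transcript was not tested here either.

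Markers of other cells moved with CORT in the same WAT libraries. The 7 macrophage markers summed to 865 CPM in GRf/f vehicle, 2062 CPM in GRf/f CORT, 1083 CPM in GRmKO vehicle and 2008 CPM in GRmKO CORT, with 5 of 7 and 1 of 7 called higher. The 5 endothelial markers summed to 623, 231, 577 and 311 CPM, with 4 of 5 and 1 of 5 called lower. The 4 B cell markers summed to 10.5, 1.46, 15.9 and 3.81 CPM, with 4 of 4 called lower in both genotypes. The 5 erythroid markers summed to 2993, 1474, 3092 and 3864 CPM, with 3 of 5 called lower in GRf/f and 0 in GRmKO. Adipocyte markers were called higher for 1 of 10 and lower for 2 of 10 in each genotype. Of the 6 skeletal muscle markers above the filter, 1 was called higher and 3 lower in GRf/f, and 0 in GRmKO. Of 15 hepatocyte markers, 2 were called higher and 1 lower in GRf/f, and 4 higher and 1 lower in GRmKO. The part of these cells in the changes of Slc3a2, the light chains, Slc1a3 and Slc38a5 was not tested.

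Between genotypes, the calls in WAT by library totals each involved a library listed at 0. Under vehicle, 1 of 30 members was called higher in GRmKO and 3 lower, beside 1.95% and 2.33% of all genes, and each of these 4 (Slc1a4 higher, Slc7a4, Slc38a3 and Slc38a5 lower) was listed at 0 in 1 of both libraries. With CORT, 1 was called lower, again Slc7a4, beside 2.27% of all genes called lower and 2.62% called higher, and with TMM factors Slc1a1 joined as 1 called higher. The median with CORT was -0.19 beside -0.04 over all genes, and 18 of 30 members had an interval below 0 against 4 above. In the same comparison, 5 of 5 erythroid and 6 of 15 hepatocyte markers were called higher in GRmKO. Under vehicle, 3 of the 6 skeletal muscle markers above the filter were called lower in GRmKO and 1 higher. Adam7, the 1 epididymis marker above the filter, was also called lower there. The part of these cells in the members' values was not tested.

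**Figure D4:**
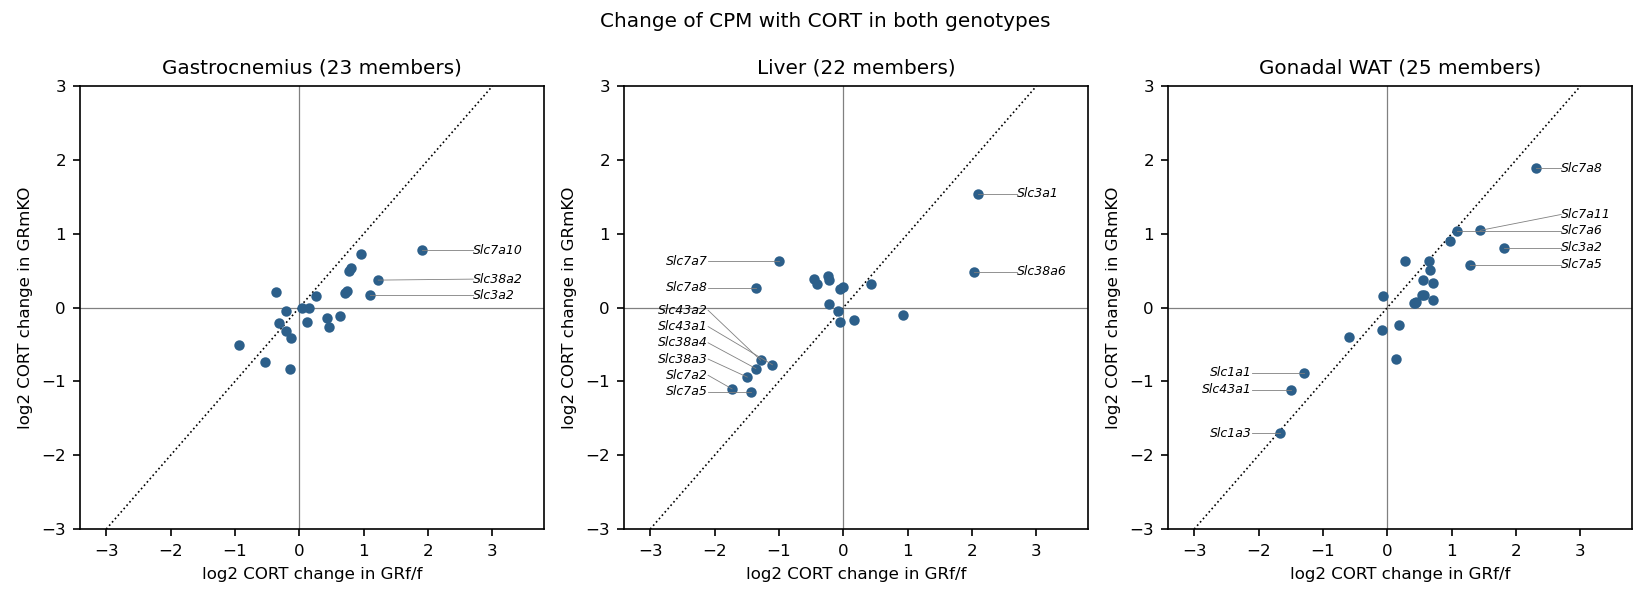
Change of CPM with CORT, as log2(CPM + 0.5), in GRf/f (horizontal) against GRmKO (vertical) for members above 0 in all 4 libraries of a tissue, with members called in either genotype named and equal change dotted. Slc38a2 (1.23 and 0.37) and Slc38a6 in liver (2.03 and 0.48) lie far from the dotted line, and Slc1a3 in WAT (-1.67 and -1.70) lies on it.

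Across tissues, Slc7a8, Slc7a5 and Slc3a2 were compared with the same kept transcript. With CORT in GRf/f, Slc7a8 was lower in muscle and liver and higher in WAT, with changes of -0.94, -1.35 and 2.30. Slc7a5 gave -0.54, -1.44 and 1.28, and Slc3a2 gave 1.10, -0.42 and 1.81. Slc38a2 gave 1.23, -0.45 and 0.70. In GRmKO, the changes in muscle, liver and WAT were -0.50, 0.27 and 1.89 for Slc7a8, -0.74, -1.14 and 0.58 for Slc7a5, 0.16, 0.32 and 0.81 for Slc3a2, and 0.37, 0.39 and 0.11 for Slc38a2. In liver, Slc7a8, Slc3a2 and Slc38a2 thus had opposite signs in the 2 genotypes.

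Genes upstream and downstream of these carriers were read from lists. Of the amino acid response genes on which ATF4 acts, 29 entered in muscle, and with CORT 2 were called higher and 4 lower in GRf/f, with a median of -0.03, beside 4.63% and 6.44% of all genes, and 2 higher and 1 lower in GRmKO, beside 2.74% and 6.92%. Atf4 itself stood at 170.0, 216, 175 and 173 CPM in GRf/f vehicle, GRf/f CORT, GRmKO vehicle and GRmKO CORT muscle. In WAT, 5 of 29 response genes were called higher and 2 lower with CORT in GRf/f (median 0.17), beside 6.77% and 9.9% of all genes, and 4 higher and 2 lower in GRmKO (median 0.04), beside 4.91% and 7.06%. Wars, the tryptophanyl-tRNA synthetase, gave 14.3, 72.1, 30.3 and 61.6 CPM there. In liver, 4 of 24 were called higher and 3 lower in GRf/f, beside 7.54% and 7.71% of all genes, and 3 higher and 2 lower in GRmKO, beside 4.45% and 4.35%.

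Of the genes that pass amino acid levels to mTORC1, 1 of 33 was called higher with CORT in GRf/f muscle and 2 lower, beside 4.63% and 6.44% of all genes. In GRf/f liver, 1 of 32 was called higher and 0 lower, beside 7.54% and 7.71%, and in GRf/f WAT 2 of 31 higher and 1 lower, beside 6.77% and 9.9%. Sesn1, a sestrin that holds back mTORC1, stood at 15.2 CPM in GRf/f vehicle, 40.5 CPM in GRf/f CORT, 23.0 CPM in GRmKO vehicle and 16.6 CPM in GRmKO CORT muscle. Castor1, an arginine sensor, was lower with CORT in muscle of both genotypes, from 5.09 to 1.70 CPM and from 7.83 to 2.6 CPM. Amino acid carriers of other families gave 1 of 15 called higher and 3 lower in GRf/f muscle with CORT, 0 of 14 called in GRf/f liver and 1 of 13 called lower in GRf/f WAT, beside the same shares of all genes. Slc25a44, the mitochondrial carrier of branched-chain amino acids, was 1 of those lower in muscle, with 23.5, 10.4, 10.5 and 20.9 CPM in GRf/f vehicle, GRf/f CORT, GRmKO vehicle and GRmKO CORT. Slc16a10 (TAT1), a carrier of aromatic amino acids, stood at 84.5, 64.6, 41.7 and 51.0 CPM in the same order.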

How the data were processed

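RNA pools of 3 mice from 12 groups were sequenced with 100-base paired reads. The authors quantified reads with Salmon 1.2.1 on protein-coding transcripts and imported them into R 3.5.0, and per the study's methods 1 entry was kept per gene name. The deposited values are expected counts that tximport, per the study's methods, derived from abundances (its length-scaled TPM setting), so counting intervals are approximate. Each group was 1 library, and 0 columns lacked a sample. CPM was computed from each library total. Changes were differences of log2(CPM + 0.5), called at 2-fold, among entries at 1 CPM or more in 1 of a tissue's 4 libraries. Alternatives were TMM factors (edgeR 4.0.16), median-of-ratios factors (DESeq2 1.42.0), a pseudocount of 0.1 CPM, no filter or a filter at 5 CPM, a 1.5-fold limit, and the NOISeq procedure of the study's methods, rewritten here, with q 0.9, 5 drawn samples at 0.2 of the depth and a spread of 0.02, on counts rounded to whole numbers. The fold rule was preferred, since NOISeq draws its replicates by simulation. Scripts were tested on simulated data. Lengths, exons and positions came from GENCODE M21 (GRCm38), which is not the release the authors used. A member was named in a tissue where it was called in any comparison or was among the 5 highest per length, and the remaining members named were chosen after their values were seen. Members and lists (carriers of other families, amino acid response genes, mTORC1 input, cell markers) were chosen with earlier results of these data known.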

Additional observations from a re-analysis of the deposited data

Results flagged for a closer look

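Slc7a5 and Slc7a8 changed in opposite directions with CORT in 2 tissues of GRf/f mice. The log2 change of Slc7a5 was -1.44 in liver and 1.28 in WAT, and that of Slc7a8 was -1.35 in liver and 2.30 in WAT. Both genes were below 5 CPM in every liver library, and the differences between tissues were not tested. In GRmKO mice the changes in liver and WAT were -1.14 and 0.58 for Slc7a5, and 0.27 and 1.89 for Slc7a8, so that Slc7a8 had no opposite directions there. Slc38a3 in WAT changed in opposite directions with CORT in the 2 genotypes, with -1.15 in GRf/f and 1.84 in GRmKO, from levels of 0 to 2.05 CPM. That difference was not tested either, and the second value rests on a library listed at 0.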

How the results depend on the processing

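TMM factors ran from 0.9544 to 1.0680, and median-of-ratios factors lay close to them. Such factors are too near 1 to turn the sign of a called change. That 0 of 59 called changes of members changed sign under either scaling was thus fixed in advance. The largest change that a scaling turned was 0.109 in size. Of 84 counts of called members recomputed, 57 were within 1.5 times the main count. At 1.5-fold, the counts became 13, 7, 11 and 13 in gastrocnemius (CORT in GRf/f, CORT in GRmKO, genotype under vehicle, genotype with CORT; main 6, 2, 5 and 6), 8, 5 and 5 in liver (CORT in GRmKO, genotype under vehicle, genotype with CORT; main 3, 0 and 2), and 14 and 6 in WAT (CORT in GRmKO, genotype with CORT; main 8 and 1). With the filter at 5 CPM they became 0 and 3 in gastrocnemius (CORT in GRmKO, genotype under vehicle), 1 in liver (genotype with CORT) and 5, 2 and 0 in WAT (CORT in GRmKO, genotype under vehicle, genotype with CORT), since fewer genes are tested. NOISeq gave 2, 0 and 3 in gastrocnemius (CORT in GRf/f, CORT in GRmKO, genotype under vehicle), 5 and 1 in liver (CORT in GRf/f, genotype with CORT) and 6, 4, 0 and 0 in WAT, in part since it leaves out genes with a 0, and for the rest the cause was not tested. Over all genes it called 463, 279 and 469 of 13543 in gastrocnemius. The like counts were 614 and 183 of 12485 in liver, and 1087, 611, 111 and 91 of 14218 in WAT. For the other settings, no share of all genes stands beside the counts. They show only how far the calls depend on the setting. In WAT, genotype with CORT gave 2 with either scaling and 3 with a pseudocount of 0.1 CPM. TMM moved the median of all genes from -0.10 to 0.03 for CORT in GRmKO muscle and from -0.13 to 0.00 in GRmKO WAT. Slc38a2 passed 2-fold for genotype under vehicle in muscle with TMM (-1.03), and Slc38a3 for CORT in GRmKO liver (-1.01). Values of a few CPM, near the floor, stand behind Slc7a7 in muscle and liver, Slc7a5 in liver and Slc38a3 in WAT. No paired analysis was possible because each group is 1 library, and for the same reason no replicate could be left out.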
